A study of Mus musculus with 2 samples.

Results

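The aminoacyl-tRNA synthetase genes are the genes of the enzymes that load each transfer RNA with its amino acid. They were taken from the count table by name, as rows called by 1 capital letter followed by "ars" or "ars2", together with Eprs, Ears2, Farsa and Farsb. This rule, which used no measured value, gave 37 of the 22556 genes listed. By the ending "2", 17 of them were counted as mitochondrial enzymes and the other 20 as cytosolic enzymes. Expression was measured in 1 group of 2 replicates of iXist-ChrX-Dom, a female XX mouse embryonic stem cell (mESC) line of strain Dom/129S x Cast, in which the endogenous Xist promoter of the Dom/129S allele had been replaced with a TetOn promoter. The cells were untreated (0 h, with no doxycycline to switch on the TetOn promoter) and were grown in serum with LIF on mitomycin-treated feeder fibroblasts, which were removed by pre-plating. All data therefore come from 1 engineered line, and there is no second group to set it against. Polyadenylated RNA was isolated on oligo-dT beads and sequenced as stranded libraries. Nothing in the labels says that the replicates were separate cultures, so standard deviations (SD) measure only the spread between these samples, which may be technical. The p-values set the difference between the 2 libraries against counting noise alone and hold no estimate of spread between replicates.

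Each synthetase recognises its own tRNAs and joins them to the matching amino acid at the cost of ATP. Most amino acids have a pair of nuclear genes, one for the enzyme that serves the cytosol and one for an enzyme that is imported into mitochondria, which translate their own short genome. Gars and Kars are exceptions, because each makes the glycyl or lysyl enzyme of both compartments. Eprs joins the glutamyl and prolyl activities in a single protein, Farsa and Farsb are the alpha and beta subunits of a single phenylalanyl enzyme, and mitochondrial glutaminyl-tRNA is made by an indirect route that needs no dedicated synthetase. In the cytosol several synthetases are held in the multisynthetase complex. ATF4, a transcription factor that rises when amino acids are short or proteins misfold, is known to bind C/EBP-ATF response elements at several cytosolic synthetase genes.

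Replicate 1 held 23716499 counts and replicate 2 held 20275749. The cell type label reads "mESC to NPC" (NPC, neural precursor cell), and the markers were those of the embryonic stem cell. Of 10 such markers 9 reached 10 TPM (counts per kb of gene length, scaled to a sum of 1000000 in each library), with Utf1 at 0.757 TPM, against 0 of 8 neural precursor markers, 0 of 8 fibroblast markers and 0 of 5 primitive endoderm markers. These levels are by exonic length, and by the deposited length, introns included, the neural marker Nes was at 12.9 TPM in place of 3.80 TPM. The summed level of the neural markers was 5.09 TPM in replicate 1 and 4.35 TPM in replicate 2, and Sox1 and Olig2 had no count in either. The summed fibroblast level was 3.01 and 0.725 TPM, with Lum at 0 counts in both. The replicates differed beyond counting noise for most genes, with a trend along the GC content of the transcripts that is described with the replicate differences.

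All 37 synthetase genes were expressed. Each had a mean level of at least 1 TPM, which 55.3% of the 22138 genes with an exonic length reached. At 10 TPM there were 31 (19 of 20 cytosolic and 12 of 17 mitochondrial) against 34.1% of genes, and at 100 TPM there were 11 (9 cytosolic and 2 mitochondrial) against 10.2%. Their share of all counts was 0.324% in replicate 1 and 0.269% in replicate 2. In bulk samples fewer cells of a type and less RNA per cell cannot be told apart. Levels are given per exonic length, since the library was polyadenylated RNA. The deposited counts, however, include fragments in introns, so levels of long genes hold an unknown share of unspliced RNA.

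By exonic length the aspartyl enzyme had the highest level of the cytosolic set, and by the deposited length Nars (325 TPM) and Tars (200.5 TPM) were above Dars (122 TPM). Dars (chr1:128363706-128417416, minus strand, mm10) had 435 TPM in the first replicate and 579.8 TPM in the other (508 ± 102 TPM, mean ± SD, n = 2), from 8054 and 8626 counts. Nars, the asparaginyl enzyme, was at 305 and 412 TPM (359 ± 75.8 TPM, n = 2). Both genes were higher in replicate 2, and the replicates of Dars lay above both of Nars. Below them came Gars at 331 and 176 TPM (253 ± 109 TPM, n = 2). Eprs was at 256 and 226 TPM (241 ± 21.3 TPM, n = 2). The phenylalanyl beta subunit gene Farsb was at 254 and 223 TPM (239 ± 21.9 TPM, n = 2). The 3 genes could not be ordered, as the 2 values of Gars enclosed those of Eprs and Farsb.

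Between 94.9 and 204 TPM lay Rars, Tars, Kars, Iars and Lars, the arginyl, threonyl, lysyl, isoleucyl and leucyl enzymes. Kars was spread the most of these. This gene (chr8:111993438-112011354, minus strand) had 193 TPM in replicate 1 but 74.1 TPM in replicate 2 (133 ± 83.9 TPM, n = 2), so its replicates spanned the levels of Tars, Iars and Lars. Of the bases taken as exons of Tars, 65.8% lay inside the span over which the gene was counted, and its mean was 153 TPM by all exons and 211 TPM by those inside.

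A step in the order followed. Both replicates of Lars (106 and 83.6 TPM) were above both of Hars, the histidyl enzyme (56.4 and 32.1 TPM). The next 8 genes overlapped from one to the next, from Yars (tyrosyl) at 37.8 TPM through Cars (cysteinyl), Qars (glutaminyl), Wars (tryptophanyl), Farsa and Aars (alanyl) to Sars (seryl) and Mars (methionyl). Sars was at 34.5 and 14.5 TPM (24.5 ± 14.1 TPM, n = 2). Mars, which also loads the initiator tRNA, was at 31.8 and 15.8 TPM (23.8 ± 11.3 TPM, n = 2). Neither could be separated from Farsa or Aars by its replicates. Vars, the valyl enzyme, stood below all other cytosolic genes at 9.74 and 4.32 TPM (7.03 ± 3.84 TPM, n = 2), from 303 and 108 counts.

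**Figure D1:**
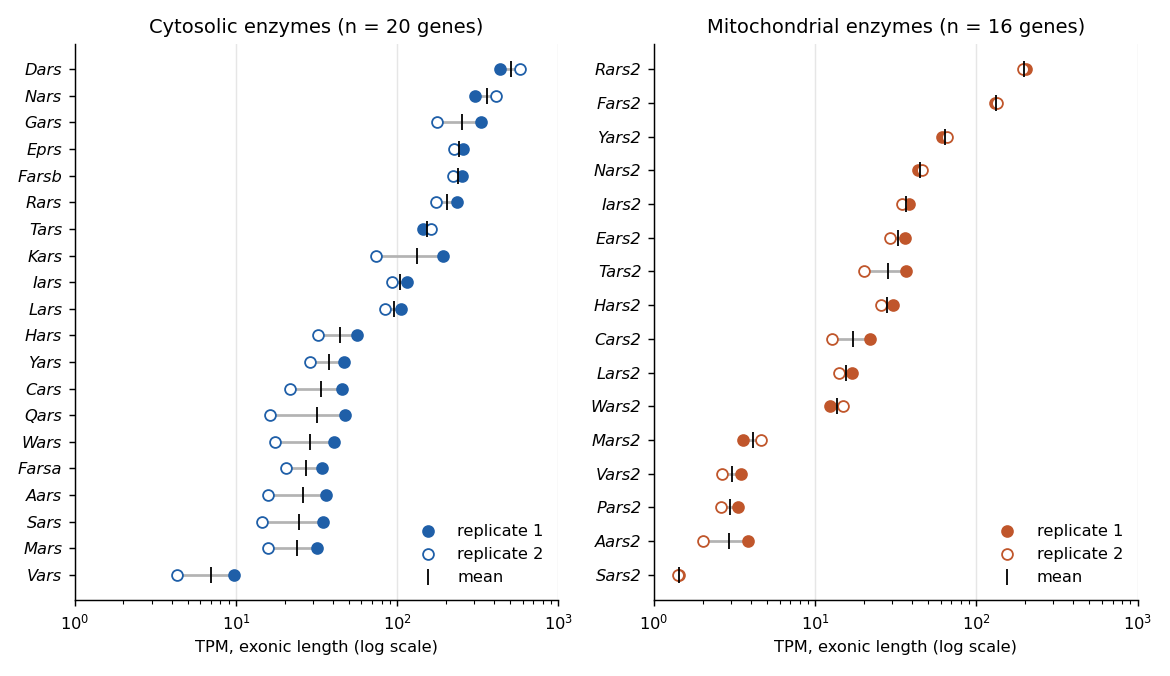
Level of each synthetase gene in TPM by exonic length on a log axis, for 20 cytosolic (left) and 16 of the 17 mitochondrial genes (right), ordered by mean. Filled points are replicate 1, open points replicate 2, vertical marks the mean and grey lines the range. The cytosolic means run from 7.03 TPM (Vars) to 508 TPM (Dars) and the mitochondrial means from 1.42 TPM (Sars2) to 199 TPM (Rars2), and the open point lies to the left for every cytosolic gene from Kars down.

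Rars2 (chr4:34614957-34660167, plus strand), the mitochondrial arginyl enzyme, had the highest level of its compartment by exonic length, at 203 and 194 TPM (199 ± 5.87 TPM, n = 2). By the deposited length Yars2 (156 TPM), Mars2 (84.0 TPM) and Hars2 (52.2 TPM) were above it (42.7 TPM). Fars2 (chr13:36117642-36537595, plus strand), which loads phenylalanine as a single-chain enzyme, followed at 131 and 134 TPM (132 ± 2.65 TPM, n = 2). The exons of Fars2 made up 0.559% of its span of 419954 bases, and by the deposited length, introns included, its level was 3.86 TPM. How many of its 2304 and 1906 counts came from introns was not tested. Yars2 was at 60.8 and 66.0 TPM (63.4 ± 3.64 TPM, n = 2). Nars2 was at 43.4 and 46.0 TPM (44.7 ± 1.84 TPM, n = 2). The replicates of these first 4 genes did not overlap from one gene to the next.

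The middle of the mitochondrial set was close together. Iars2, Ears2 (glutamyl), Tars2 and Hars2 had means from 27.9 to 36.3 TPM, and Cars2, Lars2 and Wars2 from 13.6 to 17.3 TPM. The lowest 5 genes were set apart from these by a gap below Wars2. Mars2 was at 3.58 and 4.63 TPM (4.10 ± 0.741 TPM, n = 2), but only 25.5% of its exonic bases lay inside the counted span, and by those bases alone its mean was 14.5 TPM. Vars2 was at 3.46 and 2.65 TPM. Pars2, the prolyl enzyme, was at 3.32 and 2.60 TPM (2.96 ± 0.503 TPM, n = 2). The alanyl enzyme gene Aars2 was at 3.81 and 2.02 TPM (2.92 ± 1.26 TPM, n = 2). These 3 genes overlapped one another. Sars2 was the lowest of all members at 1.42 TPM in both replicates (SD 0.00525, n = 2), and its level rests on 20 and 16 counts, few enough that counting error exceeds that SD.

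Across the 37 genes, 28 of the 36 neighbours in the order of means had overlapping replicates. Within compartments this held for 15 of 19 cytosolic and 9 of 16 mitochondrial neighbours. Spearman's rho between the replicates' TPM was 0.949 over the members, 0.947 over the cytosolic and 0.961 over the mitochondrial genes (across genes, which are not independent replicates). Between mean TPM by exonic and by deposited length, rho was 0.805 for the cytosolic and 0.461 for the mitochondrial genes. Between exonic TPM and CPM it was 0.913 and 0.961, and against the exonic bases inside the counted span 0.974 and 0.983.

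The cytosolic genes were expressed at higher levels than the mitochondrial genes. Their summed level was 2754 TPM in replicate 1 and 2393 TPM in replicate 2, against 692 and 638 TPM for the mitochondrial genes. The median of the means was 69.6 TPM for the cytosolic and 27.9 TPM for the mitochondrial genes, a ratio of 2.49, and the ratio of the medians was 2.68 in replicate 1 and 2.66 in replicate 2. For comparison, the median over all genes with at least 1 TPM was 18.4 TPM. The median of the cytosolic set sat in the step between Lars and Hars, so it moved with small changes of the set. Without Gars and Kars, which serve both compartments, the cytosolic median was 41.0 TPM and the ratio 1.47. The deposited length gave a ratio of 3.32 and counts per 1000000 without any length (CPM) gave 3.41. The direction was the same in each of these settings.

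The members of the multisynthetase complex lay above the other cytosolic synthetases by median but spread over much of the same range. The 8 genes of the complex (Dars, Eprs, Rars, Kars, Iars, Lars, Qars and Mars) had a median of 119 TPM and ran from 23.8 to 508 TPM. The 12 cytosolic genes outside it had a median of 35.7 TPM, from 7.03 to 359 TPM. Synthetases fall into 2 structural classes with different catalytic folds. The 10 cytosolic genes of class II had a median of 143 TPM and the 9 of class I 33.6 TPM, leaving aside Eprs, which holds both. For the mitochondrial genes the medians were 28.2 TPM (8 genes, class II) and 17.3 TPM (9 genes, class I), an order that turned by the deposited length (9.83 and 12.2 TPM). With so few genes in each, these are descriptions without a test. The groups also differed in median transcript GC content, at 47.1% in the complex and 51.6% outside it. For cytosolic class II and class I it was 48.3% and 52.8%. Levels of the cytosolic genes fell with GC content, as given below, and its part in these differences was not tested.

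Subunits of the phenylalanyl enzyme, which assembles with equal numbers of alpha and beta chains, differed in RNA level. Farsa was at 34.0 and 20.6 TPM (27.3 ± 9.52 TPM, n = 2), far below the 254 and 223 TPM of Farsb. Both replicates gave the same order. By the deposited length the means were 21.0 TPM for Farsa and 38.5 TPM for Farsb.

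For each amino acid with a gene in both compartments, the level of the cytosolic gene was divided by that of the mitochondrial gene within each replicate. Of 17 pairs, with Farsa taken for phenylalanine, the cytosolic gene was higher in both replicates in 14, and the median log2 ratio was 2.46. The exonic bases inside the span gave 13 such pairs and a median of 1.10, CPM 12 and 1.68, and the deposited length 14 and 2.28. The mitochondrial gene was higher in both for tyrosine and phenylalanine, and by the deposited length for 3 amino acids (tyrosine, histidine and methionine). Arginine changed sign between replicates.

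By exonic length the largest ratio was that of proline. Eprs exceeded Pars2 by a log2 ratio of 6.27 in replicate 1 and 6.44 in replicate 2 (6.35 ± 0.12, n = 2), an 81.8-fold difference. By the deposited length it was 3.09, below the pairs of Nars (5.23), Sars (4.16), Lars (3.33) and Aars (3.25). Against Ears2, its partner for glutamate, the same gene had a log2 ratio of 2.89 ± 0.09 (n = 2) by exonic length and of 2.95 by the deposited length. Pars2 and Ears2 thus differed in level by exonic length, at 2.96 and 32.5 TPM, but were at 11.1 and 12.2 TPM by the deposited length. Sars over Sars2 gave 4.60 and 3.35 (3.98 ± 0.88, n = 2). The serine pair was thus farther apart in replicate 1, where Sars was higher.

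At the other end were the phenylalanine, tyrosine and arginine pairs. Farsa over Fars2 gave a log2 ratio of -1.94 and -2.71 (-2.32 ± 0.54, n = 2), a level 5.01-fold higher for the mitochondrial gene. With Farsb as the cytosolic gene the ratio was 0.85 ± 0.16 (n = 2), and by the deposited length Farsa over Fars2 was 2.41, so the direction of this pair depended on the subunit and on the length. Yars over Yars2 gave -0.38 and -1.20 (-0.79 ± 0.58, n = 2), a 1.73-fold higher level of the mitochondrial gene. It was below 0 also by the deposited length and by CPM. Rars over Rars2 gave 0.20 and -0.16 (0.02 ± 0.25, n = 2) by exonic length, and 0.99 by the deposited length.

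The remaining pairs lay between these. Alanine, asparagine, leucine, threonine and methionine had mean log2 ratios from 2.46 to 3.10. Isoleucine, valine, tryptophan, cysteine and histidine ran from 0.61 to 1.51, and the tryptophan pair was at 1.70 in replicate 1 and 0.25 in replicate 2. Mars over Mars2, 2.46 by exonic length, was -1.90 by the deposited length and 0.49 by the exonic bases inside the span. Hars over Hars2, 0.61 by exonic length, was -0.98 by the deposited length and -0.13 by CPM. For these 2 pairs no direction can be given independently of the length.

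**Figure D2:**
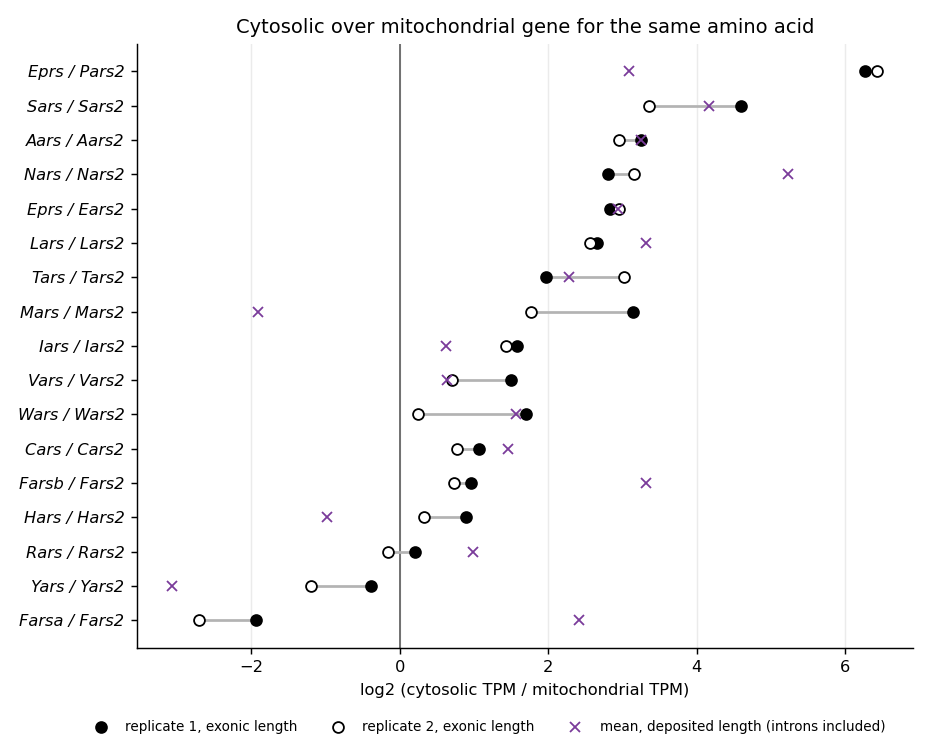
Log2 ratio of the TPM of the cytosolic gene over the mitochondrial gene for the same amino acid, with 1 pair not shown, ordered by the mean of the replicates. Filled and open points are replicates 1 and 2 by exonic length, joined by a grey line, and crosses are the mean ratio by the deposited length. Eprs over Pars2 is highest at 6.35 and Farsa over Fars2 lowest at -2.32, and the crosses of Mars, Hars and Farsa fall on the other side of 0 from their points.

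Levels of the cytosolic synthetases were ordered along GC content. The 10 genes with the highest level (94.9 to 508 TPM) had a transcript GC content of 41.2% to 50.3%, and the 10 lowest (7.03 to 44.2 TPM) 49.4% to 60.9%. Dars, the highest, had the lowest GC content of the 20, and Vars, the lowest, had the highest. Spearman's rho between GC content and mean TPM was -0.84 over the 20 cytosolic genes, with -0.82 in replicate 1 and -0.88 in replicate 2, and -0.77 by the deposited length. It was -0.55 over the 17 mitochondrial genes and -0.69 by the deposited length. Over the 9244 autosomal genes that had 50 counts or more in both libraries it was -0.42, and -0.32 by the deposited length. These are descriptions across genes, which share the libraries and any bias of their preparation with base composition, and the part of that bias in the order of levels was not tested.

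**Figure D3:**
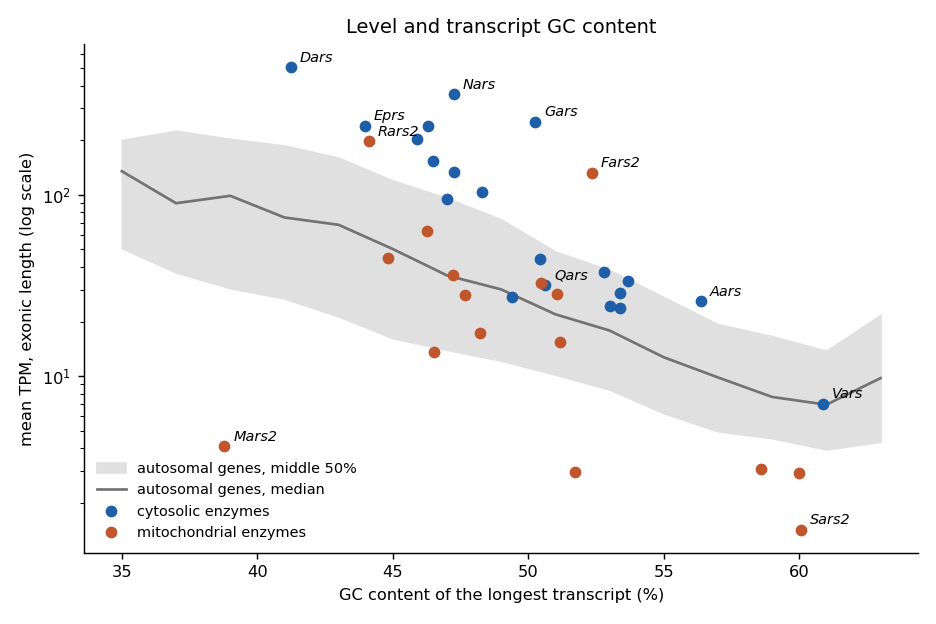
Mean level in TPM by exonic length (log axis) against the GC content of the longest transcript in percent, for 20 cytosolic and 16 of the 17 mitochondrial synthetase genes, with the median (grey line) and the middle 50% (shaded) of 9244 autosomal genes in bins of GC content. The cytosolic genes run from Dars (41.2%, 508 TPM) down to Vars (60.9%, 7.03 TPM).

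The replicates were then compared gene by gene with an exact binomial test, two-sided, that set the counts against the ratio of the library totals, adjusted by Benjamini-Hochberg over the 14536 genes with 10 counts or more in all. The test compares these 2 libraries and not conditions. Of the 37 members 30 passed at 0.05, where 60.8% of all genes tested passed, and 26 were lower in replicate 2, where 45.7% of all genes were. All 20 cytosolic genes passed, 17 lower and 3 higher in replicate 2. Of the 17 mitochondrial genes 10 passed, 9 of them lower. Calls by this test rise with counts, and the median CPM was 69.9 for the cytosolic and 20.5 for the mitochondrial genes. Among the 9244 autosomal genes with 50 counts or more in both libraries, 6568 passed, 4592 of them lower. The median log2 ratio of replicate 2 over replicate 1 was -0.86 for the cytosolic genes, -0.34 for the mitochondrial genes and -0.31 for all genes tested. Other scaling factors moved the ratios of all genes up by 0.26 (TMM) or 0.31 (DESeq2 size factors) on the log2 scale. It left 19 members lower and 9 higher (TMM) or 18 lower and 9 higher (DESeq2), in place of 26 and 4, where 28.9% (TMM) and 26.1% (DESeq2) of all genes tested were called lower. Over all genes the share of calls that were higher in replicate 2 was 24.9% as reported, 49.9% by TMM and 54.8% by DESeq2.

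The largest falls were in Qars, Kars, Sars, Wars and Aars. Qars had 996 counts in replicate 1 and 277 in replicate 2, a log2 ratio of -1.62 (exact binomial test with Benjamini-Hochberg adjustment, adjusted p = 2.7e-71). Kars had 3254 and 1006 counts, a log2 ratio of -1.47 (same exact test, adjusted p = 2.46e-200). Sars had 944 and 319 counts (-1.34), Wars 870 and 304 counts (-1.29) and Aars 1563 and 547 counts (-1.29). In CPM, which takes the library totals into account, these 5 genes were 2.44-fold to 3.07-fold higher in replicate 1. Gars was 2.00-fold higher in replicate 1, with a log2 ratio of -0.997 (same exact test, adjusted p = 1.74e-198).

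The members that were higher in replicate 2 included the most abundant ones. Nars had 6711 and 7295 counts, a log2 ratio of 0.35 (exact binomial test with Benjamini-Hochberg adjustment, adjusted p = 1.51e-44). Dars had a log2 ratio of 0.33 (same exact test, adjusted p = 1.15e-46). Mars2 was at 304 and 316 counts, a log2 ratio of 0.28 (adjusted p = 0.0273, exact test), and Tars at 4339 and 3943 counts, a log2 ratio of 0.09 (adjusted p = 0.0107, exact test). Wars2, with a log2 ratio of 0.16, did not pass (adjusted p = 0.16, exact test). In the middle stood Eprs at -0.27 and Farsb at -0.28, whose ratios were 0.04 and 0.04 by DESeq2 size factors, and Farsa at -0.81. Rars2, at -0.15, was at 0.11 by TMM and 0.16 by DESeq2 size factors.

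Replicate ratios fell with GC content across the genes, and the comparison was repeated with that trend taken off. Spearman's rho between GC content and the log2 ratio was -0.65 over the 9244 autosomal genes, -0.73 over the cytosolic and -0.44 over the mitochondrial members. When the binomial test was run against the ratio expected from a polynomial trend along GC content, 26 of 37 members passed (45.6% of all genes tested did), 20 of them lower in replicate 2 (21.6% of all genes). Of the cytosolic genes 19 passed, 16 lower and 3 higher, and their median was -0.42 below the trend on the log2 scale. Of the mitochondrial genes 7 passed, 4 lower and 3 higher, with a median of 0.07. Among the 9244 autosomal genes 5422 passed, 2254 of them lower. The SD of the log2 ratio over the members went from 0.54 to 0.44.

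Kars and Qars stood farthest from the trend. Kars was at -1.21 and Qars at -1.13 relative to the trend, although their GC contents of 47.3% and 50.6% are near the middle of the set. Sars was at -0.72, Wars at -0.65, Aars at -0.54 and Gars at -0.54. On the other side Nars was at 0.60 and Fars2 at 0.54, while Sars2, at 0.67 from few counts, did not pass (exact test, adjusted p = 0.334). Mars2 was at 0.02 (exact binomial test with Benjamini-Hochberg adjustment, adjusted p = 0.954) and so followed the trend. The signs of Iars2 (-0.24 as counted, 0.01 against the trend), Ears2 (-0.40 and 0.07) and Lars2 (-0.34 and 0.18), which passed as counted, turned when the trend was taken off. None of them passed against the trend (same exact test, adjusted p = 0.914, 0.588 and 0.164), so they lost their call and did not pass in the other direction. Of the members that had not passed as counted, Vars2 (-0.47 and 0.31), Pars2 (-0.43 and 0.12), Fars2 (-0.05 and 0.54), Sars2 (-0.09 and 0.67) and Nars2 (-0.0044 and 0.08) turned as well. Only Fars2 of these passed against the trend (same exact test, adjusted p = 2.11e-31).

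**Figure D4:**
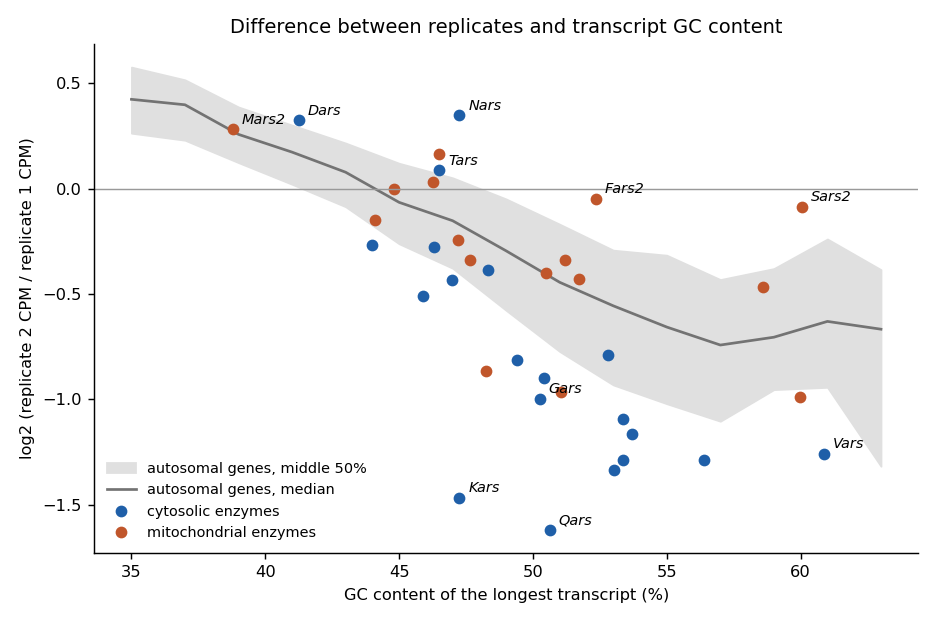
Log2 ratio of CPM in replicate 2 over replicate 1 against transcript GC content in percent, for 36 of the 37 synthetase genes, with the median (grey line) and the middle 50% (shaded) of 9244 autosomal genes in bins of GC content. The cytosolic genes lie mostly under the grey line, with Qars (-1.62) and Kars (-1.47) lowest, and the mitochondrial genes lie on both sides of it.

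The partners of aminoacylation had a median replicate ratio nearer to that of the mitochondrial than of the cytosolic synthetases. The list held 22 genes for the scaffold of the complex, the mitochondrial glutaminyl-tRNA route, initiator formylation, editing, the selenocysteine route and the ends and export of tRNA. All 22 were above 1 TPM and 18 were above 10 TPM, with a median of 28.7 TPM. Of them 13 passed the replicate test, 12 lower in replicate 2, and 10 passed against the GC trend, 4 lower, which is near the shares over all genes (60.8% and 45.7%, and 45.6% and 21.6%). Their median log2 ratio was -0.24 as counted and -0.02 against the trend. No test was run of the difference between lists.

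Among the scaffold genes of the complex, Aimp1 was at 316 and 265 TPM (290 ± 36.3 TPM, n = 2), the highest of the list by exonic length. By the deposited length Trnt1 (335 TPM) was the highest and Aimp1 was at 72.7 TPM. Eef1e1 was at 225 and 247 TPM (236 ± 15.9 TPM, n = 2). Counting only the exonic bases inside its counted span, Eef1e1 had a mean of 523 TPM and was the highest in place of Aimp1. Aimp2 was at 18.1 and 4.71 TPM, from 162 and 34 counts, a log2 ratio of -2.01 and the largest of the list (exact binomial test with Benjamini-Hochberg adjustment, adjusted p = 2.27e-16). Relative to the GC trend it was at -1.35. The 3 scaffold proteins sit in a single complex, and their RNA levels were unequal in both replicates.

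In the indirect mitochondrial route, Qrsl1 and Gatb, subunits of the amidotransferase that turns glutamyl-tRNA into glutaminyl-tRNA, were at 27.2 and 27.0 TPM. The third subunit gene Gatc was at 6.79 TPM. By the deposited length Qrsl1 was at 10.2, Gatb at 7.48 and Gatc at 7.97 TPM, so Gatc was not the lowest. Mtfmt, which formylates the mitochondrial initiator tRNA, was at 28.3 TPM and Tarsl2, a cytosolic threonyl enzyme related to Tars, at 45.9 TPM against 153 TPM for Tars. Pstk, the kinase of the selenocysteine route, was at 168 TPM. Rpp30 of ribonuclease P was at 258 TPM, and Elac1, a tRNA 3′ processing enzyme, had the lowest mean of the list by exonic length at 5.81 TPM, although Aimp2 and Gatc were lower in replicate 2 and Dtd1 (2.87 TPM) was lowest by the deposited length. Trnt1, which adds the CCA end, passed the replicate test upwards as counted, with a log2 ratio of 0.17 (exact binomial test with Benjamini-Hochberg adjustment, adjusted p = 2.31e-09), but not against the GC trend, where it was at -0.02 (same exact test, adjusted p = 0.542). Against the trend 6 other partners passed upwards (Eef1e1, Gatb, Dtd1, Eefsec, Xpot and Pop1).

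ATF4 and 20 of its known targets other than synthetases were examined as a further list. Of the 21 genes, 20 had at least 1 TPM and 10 at least 10 TPM, with a median of 9.65 TPM. Asns, the asparagine synthetase, was the highest by exonic length at 537 and 342 TPM (440 ± 138 TPM, n = 2), and by the deposited length Atf4 (407 TPM) was above Asns (273 TPM). Slc7a11, a cystine transporter, was the lowest at 0.274 TPM. Of the list 15 passed the replicate test, 14 lower and 1 higher (Cebpg), and the median log2 ratio was -0.74 (over all genes 60.8% passed and 45.7% were lower). Against the GC trend 13 passed, 10 lower, with a median of -0.45 (over all genes 45.6% and 21.6%). The embryonic stem cell markers also differed between these libraries, 8 of 10 passing as lower in replicate 2 and 1 as higher (Zfp42, at 0.05), from Pou5f1 at -2.76 (1129 and 142 counts) to Klf4 at -0.15. Against the GC trend 5 of them passed as lower and 2 as higher (Klf4 and Zfp42).

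Atf4 itself was at 174 and 44.0 TPM, from 2251 and 459 counts, a log2 ratio of -2.07 (exact binomial test with Benjamini-Hochberg adjustment, adjusted p = 8.16e-223) and of -1.34 relative to the trend. Shmt2, a mitochondrial serine hydroxymethyltransferase, was at -2.31 and Eif4ebp1, a repressor of cap-dependent translation, at -2.21. The largest ratio was that of Atf5 at -2.67, from only 33 and 4 counts. Other targets did not pass the test as counted. Mthfd2 had a log2 ratio of -0.09, Cebpb of -0.01 and Vldlr of 0.01. Against the GC trend Mthfd2, at 0.33, and Cebpb, at 0.70, passed as higher in replicate 2. The part of Atf4 in the replicate ratios of the synthetase genes was not tested, and with 2 libraries it cannot be told apart from any other difference between them.

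**Figure D5:**
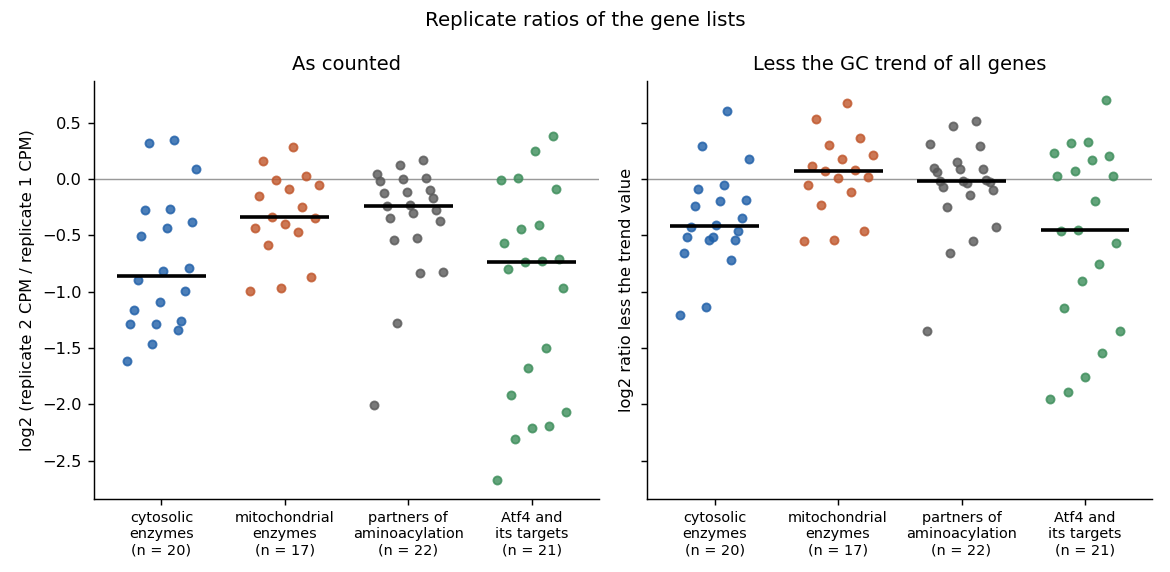
Log2 ratio of CPM in replicate 2 over replicate 1 for the cytosolic (20) and mitochondrial (17) synthetase genes, their partners (22) and Atf4 with its targets (21), as counted (left) and less the GC trend (right). Points are genes, spread sideways only for visibility, and bars are medians, which are -0.86, -0.34, -0.24 and -0.74 on the left and -0.42, 0.07, -0.02 and -0.45 on the right.

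Because several of these genes are textbook ATF4 targets, promoters were searched for the letters of the C/EBP-ATF response element. Promoter sequences (RefSeq, GRCm38.p6), from 250 bases before to 50 bases after the start, were matched for 27 of the 37 members, 13 cytosolic and 14 mitochondrial. Promoters of Cars, Hars, Hars2, Lars, Nars, Pars2, Rars, Vars and Wars were among those not used here. The letters TGATGNAA, on either strand, were found in 5 members, all cytosolic (Aars, Gars, Iars, Tars and Yars), and in 0 of the 14 mitochondrial promoters. They occur in 4.51% of 27025 promoters and in 2.57% of the 6119 promoters of genes with at least 10 TPM. The motifs and members were chosen with the levels known, so no test is given. For each gene 1 window of 30 bases is shown to let the matches be compared, with the match in capitals, written 5′ to 3′ on the strand of the gene. In all but Yars the element is read on the other strand. In none of these windows did the match overlap a match to the other motifs searched. Positions are counted from 0 at the first base of the transcript.
Yars, chr4:129189895-129189924, plus strand, bases 3 to 10: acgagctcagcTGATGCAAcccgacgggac
Gars, chr6:55037960-55037989, plus strand, bases -30 to -23: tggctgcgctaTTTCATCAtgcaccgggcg
Aars, chr8:111033840-111033869, plus strand, bases 9 to 16: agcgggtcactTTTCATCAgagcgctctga
Iars, chr13:49682126-49682155, plus strand, bases 7 to 14: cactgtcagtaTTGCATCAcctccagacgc
Tars, chr15:11399655-11399684, minus strand, bases -15 to -8: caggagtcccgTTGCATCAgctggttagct

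The 5 genes with the letters did not share a replicate ratio. Gars, at -0.54 relative to the GC trend, and Aars, at -0.54, were below it, Yars was at -0.18, Iars at -0.05 and Tars at 0.29. Kars and Qars, the members farthest below the trend, do not hold these letters in the window searched, which says nothing of sites elsewhere.

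Other motifs were found in both compartments, though not evenly. CACGTG, the E-box read by MYC and related factors, was in 5 of 27 (Aars, Ears2, Farsb, Iars and Tars) against 12.9% of promoters of genes with at least 10 TPM. These were 4 of the 13 cytosolic and 1 of the 14 mitochondrial promoters, so the E-box too lay mostly in cytosolic ones. The NRF1 motif, named for a factor of many nuclear genes of mitochondria, was in 5 (Farsb, Iars2, Kars, Mars2 and Tars), 3 cytosolic and 2 mitochondrial, against 13.7%. CCGGAAG, bound by ETS factors, was in 9 (Cars2, Farsa, Gars, Kars, Mars, Mars2, Rars2, Sars and Sars2), 5 cytosolic and 4 mitochondrial, against 23.5%. A match of letters is not evidence of binding.

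Several synthetase genes start next to a gene on the other strand that points away, an arrangement in which both genes can share a promoter region. By the spans of the count table this was so within 1000 bases for 10 of 37 members, where 9.40% of all genes and 14.2% of genes with at least 1 TPM had such a neighbour. Hars and Hars2, the histidyl pair, were neighbours of this kind themselves, with starts 73 bases apart, and of their levels (44.2 and 27.9 TPM) that of Hars was higher in both replicates by exonic length and that of Hars2 by the deposited length. Kars and Terf2ip were 3 bases apart, and Rars2 and Orc3 14 bases. Further neighbours were Wars with Wdr25 (96 bases), Ears2 with Ubfd1 (133 bases), Sars2 with Mrps12 (185 bases), Fars2 with Lyrm4 (284 bases) and Yars with S100pbp (311 bases). Of these, Ears2, Sars2, Fars2, Rars2 and Hars2 are mitochondrial enzymes.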

How the data were processed

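Polyadenylated RNA of 2 replicates of 1 group was analysed. The deposited counts are the authors' output of featureCounts 1.5.2, named in the file headers, which assigned reverse-stranded fragments over transcript features, introns included, summed by gene on mm10. The submitters' processing notes also name Bowtie2 2.3.2 and STAR 2.4.2a, and the aligner of these mRNA libraries is not given in the sources used here. The deposited length column (in bases, introns included) was used for an alternative only. Count columns were matched to samples by name, apart from a letter b that only the sample descriptions carry.

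TPM used the merged exons of GENCODE M21 basic gene models (GRCm38), matched for 21252 genes by symbol and 886 by an older symbol, with 418 unmatched. Log2 replicate ratios used CPM after adding 0.5 counts. The GC trend was a polynomial of degree 3 on autosomal genes with at least 50 counts per replicate. Because 1 group cannot be fitted by edgeR's quasi-likelihood test, replicates were compared by a two-sided exact binomial test with Benjamini-Hochberg adjustment. Scaling factors came from edgeR 4.0.16 (TMM) and DESeq2 1.42.0 in R 4.3.3, and other steps from Python 3.11.15 with scipy 1.17.1. The NRF1 motif was searched by its consensus letters. The binomial test and its adjustment were tested on simulated counts that held counting noise only, with no GC trend and no further spread between replicates. Iars was the only member that shares 50-base words with pseudogene transcripts. No exonic base of a member lay in the span of another gene of its strand, and overlap within introns, which were also counted, was not examined.

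Members, lists and tests were chosen with earlier results of these data known. All members but 1, whose own values are not reported here, are named, and counts and medians include it. Described in full are the 5 highest and 3 lowest of each compartment, the 3 highest and 3 lowest pair ratios, the 5 largest replicate differences in each direction, Gars, Kars, Eprs, Farsa and Farsb. Of other lists, the highest, the lowest and the largest replicate ratios are given, along with genes of known role chosen after their values were seen. The motifs, the exonic bases inside the counted span and Farsb as the phenylalanine gene were also chosen after seeing the data. Depth was 23716499 and 20275749 counts, and intervals were not computed for levels, whose SD over 2 samples is imprecise.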

Additional observations from a re-analysis of the deposited data

How the results depend on the processing

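The log2 ratio of the cytosolic to the mitochondrial median, 1.32 as reported, was 1.73 by the deposited length, 1.77 by CPM, 0.55 without Gars and Kars, 1.34 by the exonic bases inside the counted span and 1.41 to 1.42 with either replicate left out. The count of pairs with the mitochondrial gene higher was 2, or 1 with Farsb for phenylalanine and 3 by the deposited length. Pairs that reversed were Farsa over Fars2 (2.41 by the deposited length), Hars over Hars2 (-0.98 by the deposited length, -0.13 by CPM) and Mars over Mars2 (-1.90 by the deposited length). Replicate ratios whose sign turned were Farsb (0.0361) and Eprs (0.0428) by DESeq2 size factors, Iars2 (0.0117 by TMM, 0.0673 by DESeq2, 0.0101 against the GC trend), Rars2 (0.11 by TMM, 0.16 by DESeq2), and Ears2 (0.0749) and Lars2 (0.18) against the GC trend. Iars2, Ears2 and Lars2 did not pass the test against that trend. Ratios that had not passed the test as counted and turned were Fars2 (0.21 by TMM, 0.26 by DESeq2, 0.54 against the trend), Sars2 (0.17, 0.22 and 0.67), Nars2 (0.25, 0.31 and 0.0822), and Vars2 (0.31) and Pars2 (0.12) against the trend. Only Fars2 of these passed against the trend. The cause was not tested. Of the remaining values for single genes and pairs, 207 kept their call, or their size within 1 SD (Rars over Rars2 turned within it), 20 moved in size, 6 gained and 13 lost a call. The 207 include settings on minimum counts, which change only the genes adjusted over and leave each ratio as it was.

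With either replicate left out, 31 members reached 10 TPM, 14 to 15 pairs had the cytosolic and 2 to 3 the mitochondrial gene higher, and 8 to 12 genes of the ATF4 list and 17 to 20 partners reached 10 TPM. No paired analysis was possible because only 1 group was sampled. Depth limits genes with few counts, such as Sars2, Atf5 and Utf1, and intronic reads limit levels of genes with long introns such as Fars2.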
